A study of Homo sapiens with 18 samples.

Results

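The transcriptome of SH-SY5Y cells after metamorphine was compared with that after water in 6 of the 18 libraries of an opioid study. SH-SY5Y cells are a long-established neuroblastoma line of human origin that becomes neuron-like with retinoic acid, and every library came from wild-type cells of this 1 line kept for 7 days in 10 µM all-trans retinoic acid. The Metamorphine group (3 libraries) had been given metamorphine at 169 nM for 15 min, and the Control group (3 libraries) water for 15 min; the labels give no structure for metamorphine and do not say whether the libraries came from separate cultures. Each library name carries a code, and the 2 groups hold each code once, so that Metamorphine and Control form pairs A, B and C, called by their codes, with replicate numbers 1, 2 and 3. What the code marks is not stated in the labels. The other 12 libraries held morphine, TRV130, beta-endorphin and naloxone, and were used for the spread in the fit and as a background for each code. All 23231 genes with enough reads for a test were examined, for the difference of the groups and for the direction within each pair, with and without Control 1.

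Opioid receptors signal through inhibitory Gi/o proteins. Their alpha subunits slow adenylyl cyclase and so lower cyclic AMP and the activity of protein kinase A, while the freed beta-gamma subunits open potassium channels, close calcium channels and feed into the MAP kinase cascade. Early response genes such as FOS are transcribed within minutes of a stimulus without new protein synthesis, from promoters that are read by cyclic AMP and MAP kinase dependent factors, and are a usual first readout of such signals in neurons.

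The promoters of 3 early response genes whose values are given below are shown because they carry the core of the cyclic AMP response element, to which factors of the CREB family bind. Each line runs from 250 bases before the RefSeq start (build GRCh38.p14, plus strand) up to that start or to the base before the GENCODE gene start, whichever comes first, and capitals mark TGACG or its reverse complement.
FOS, chr14:75278578-75278773: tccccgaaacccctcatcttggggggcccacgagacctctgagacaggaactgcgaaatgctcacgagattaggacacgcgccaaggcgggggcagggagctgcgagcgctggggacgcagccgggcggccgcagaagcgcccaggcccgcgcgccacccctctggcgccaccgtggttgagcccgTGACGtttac
FOSB, chr19:45467746-45467994: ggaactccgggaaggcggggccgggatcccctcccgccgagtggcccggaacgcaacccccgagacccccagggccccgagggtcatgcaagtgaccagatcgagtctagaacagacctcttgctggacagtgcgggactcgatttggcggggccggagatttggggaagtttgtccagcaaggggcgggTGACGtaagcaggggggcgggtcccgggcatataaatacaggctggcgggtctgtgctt
IER2, chr19:13150161-13150410: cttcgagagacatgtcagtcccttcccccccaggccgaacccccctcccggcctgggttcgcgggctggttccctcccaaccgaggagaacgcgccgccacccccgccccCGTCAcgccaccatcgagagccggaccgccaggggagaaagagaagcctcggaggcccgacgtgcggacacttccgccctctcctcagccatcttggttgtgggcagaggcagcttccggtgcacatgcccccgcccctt
The core starts 64 bases before the RefSeq start in FOS, 60 before it in FOSB and 140 before it in IER2. Over the full 250 bases and on either strand, TGACG was present for 14 of the 21 early response genes with a promoter in the table, against 24.9% of all 27305 genes there. The palindrome TGACGTCA, which contains that core, was present for 1 of the 21 against 2.03%, the AP-1 motif TGANTCA for 0 against 8.06%, and the CArG box of serum response factor for 3 against 1.44%.

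Totals in the 6 libraries lay between 21211449 and 29690797 counts, and in the other 12 between 22391264 and 33123855. Control 1 stood apart. Among 3647 protein-coding genes whose median over the 18 libraries was 0 reads, it held reads for 2077 genes, 20888 reads in all, against 276 to 1052 reads in the other 5 libraries. In the 11991 genes that averaged at least 10 CPM (reads of a gene relative to the library total, scaled to 1000000 and by the TMM factor), Control 1 lay more than 1.5-fold from the mean of the other compounds' libraries of its own code for 29.6% of genes, against 0.217% to 1.34% for the other 5 libraries. Control 2 was marked by nuclear-retained RNAs. MALAT1, a nuclear long noncoding RNA, was at 1505 CPM there, against 141 and 96.1 CPM in Controls 1 and 3 and 233, 193 and 77.8 CPM in Metamorphine 1 to 3. The other compounds' libraries of code B held 202 to 248 CPM of MALAT1. Reads of mitochondrial genes made up 13.3%, 15.7% and 5.81% of the counts in Controls 1 to 3 and 9.32%, 8.02% and 5.63% in Metamorphine 1 to 3. Markers of the noradrenergic lineage of the line were present in all 6 libraries, and their summed level ran from 6207 to 7685 CPM in Control and from 6063 to 7543 CPM in Metamorphine.

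Between the groups, no gene passed the test. Of 23231 genes, 0 (0.0%) had an adjusted p under 0.05 in edgeR's quasi-likelihood test, and the smallest adjusted p was 0.595, so none of the genes named below passed. At an unadjusted p under 0.05 there were 1820 genes (7.83%), 660 of them higher (2.84%) and 1160 lower (4.99%) with metamorphine. Genes of few reads can pass the read filter through the Control libraries alone, which may in part set the larger lower count. The fitted fold change was above 0 for 10874 genes (46.8%) and below 0 for 12357 (53.2%). DESeq2 also called 0 genes. The main fit holds no term for the code, so the fitted fold changes and SEs given below do not use the pairs. With the code as a block edgeR called 0 genes too, with 5494 at an unadjusted p under 0.05 and a smallest adjusted p of 0.182. Without Control 1 the main fit again called 0 genes, and the genes under the unadjusted threshold numbered 374.

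Within the pairs, 4933 genes (21.2%) were higher and 4638 genes (20.0%) lower with metamorphine in 3 of 3. A difference of at least 1.5-fold in every pair was far rarer, with 102 genes higher (0.439%) and 292 genes lower (1.26%). All 3 Metamorphine libraries lay above all 3 Controls for 1207 genes (5.2%) and below them for 965 genes (4.15%). With no TMM factor the median difference of all genes shifted by 0.26, 0.10 and 0.05 in pairs A, B and C, and 7200 genes were then higher and 2946 lower in 3 of 3. Changes below are relative to the TMM scale. With pairs B and C alone, 6280 genes were higher and 6396 lower in both. The genes past 1.5-fold in 3 of 3 were low in reads: 64 of the 102 higher genes and 212 of the 292 lower genes had a mean under 1 CPM, compared with 20.0% of all tested genes. Only 17 of the 102 and 120 of the 292 were protein-coding, against 64.4% of all tested genes. Among genes of at least 10 CPM the counts were 2 higher and 3 lower. A gene of few reads can pass the read filter through the Control libraries alone, so the larger lower count may be in part set by the filter.

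The pairs differed widely in size. More than 1.5-fold higher were 27.6% of genes in pair A, 5.98% in pair B and 7.22% in pair C, and more than 1.5-fold lower were 26.2%, 13.4% and 6.87%. In the genes of at least 10 CPM the standard deviation of the log2 difference was 0.78 in pair A, 0.29 in pair B and 0.18 in pair C. At that level 2795 genes were over 1.5-fold higher in pair A, compared with 130 in pair B and 25 in pair C. Across these genes the differences of pairs A and C had a Pearson r of 0.615, those of A and B 0.296, and those of B and C 0.222. Over all tested genes, deviations from the group mean correlated between the libraries of a code at -0.05 in pair A, 0.65 in pair B and 0.64 in pair C. Genes are not independent replicates, and these values are a description.

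**Figure D1:**
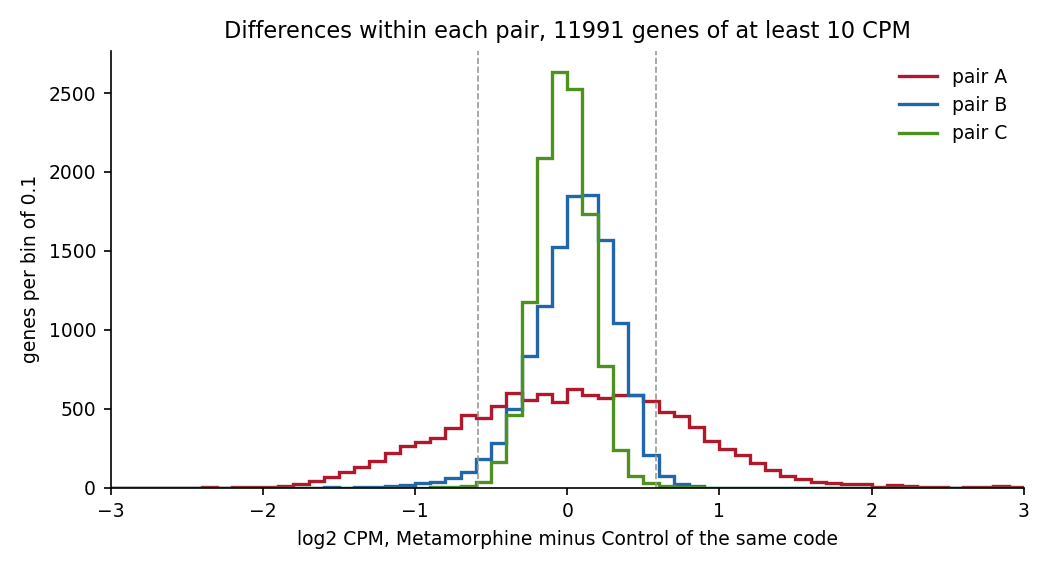
Number of genes (vertical axis, per bin of 0.1) by log2 CPM difference, Metamorphine minus Control of the same code (horizontal axis), for 11991 genes of at least 10 CPM; coloured outlines are the 3 pairs and dashed lines mark 1.5-fold. Pair A is broad (SD 0.78), and pairs B (0.29) and C (0.18) are narrow.

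Exon length moved with the difference in 2 of the pairs. Among protein-coding genes of at least 10 CPM, split into 5 equal groups by exon length, the group with the shortest (177 to 2996 bases in all) had a median log2 difference of -0.62 in pair A and the group with the longest (8493 bases or more) one of 0.59. In pair C the same groups were at -0.15 and 0.08, in the same order, and in pair B at 0.07 and 0.08. What part exon length has in the results of single genes was not tested.

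**Figure D2:**
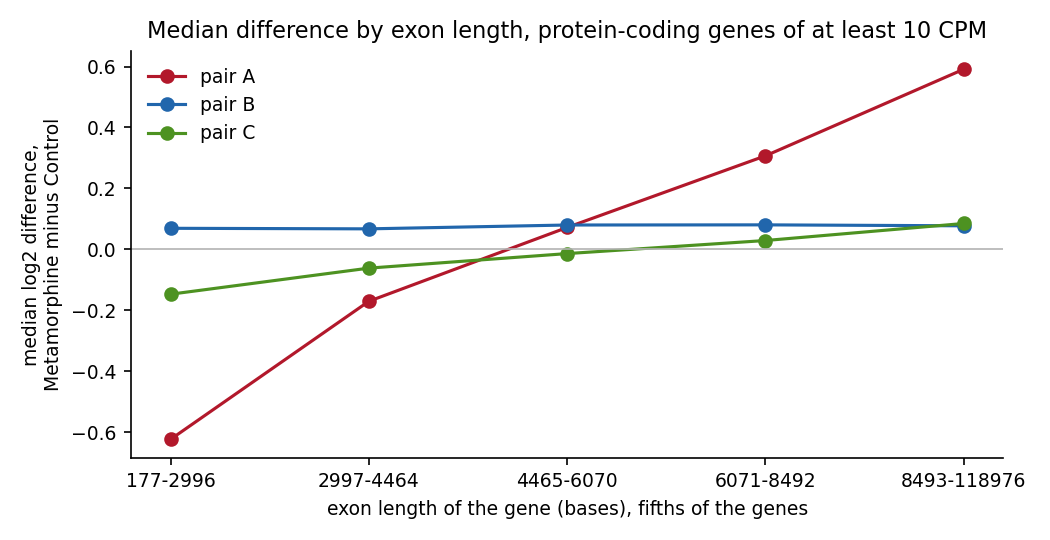
Median log2 difference, Metamorphine minus Control of the same code (vertical axis), for 5 equal groups of the protein-coding genes of at least 10 CPM by exon length in bases (horizontal axis); each line is 1 pair. Pair A climbs from -0.62 to 0.59, pair C from -0.15 to 0.08, and pair B stays between 0.07 and 0.08.

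The receptors came first in the order of the pathway. OPRM1, the mu receptor, was at 5.78, 19.3 and 4.93 CPM in Controls 1 to 3 and at 15.4, 20.9 and 6.06 CPM in Metamorphine 1 to 3. It was higher in each pair, by 1.40, 0.12 and 0.29 on the log2 scale, but the groups overlapped and both code B libraries were high (fitted log2 fold change 0.50, SE 0.57). OPRD1, the delta receptor, was at 67.1, 185 and 43.6 CPM in Control and at 86.0, 165 and 50.6 CPM in Metamorphine, again with the code B libraries highest. OPRL1, the nociceptin receptor, ranged only from 13.6 to 17.6 CPM over the 6 libraries. OPRK1, the kappa receptor, had 7 reads in Control 1, 2 reads in Metamorphine 2 and 0 in the other 4 libraries. None of the 4 genes of opioid peptide precursors had enough reads for a test.

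The 18 genes of Gi/o and beta-gamma subunits held 7 that were higher and 4 that were lower in 3 of 3 pairs (9 and 1 with no TMM factor). The shares over all genes were 21.2% and 20.0%. The median fold change of the 18 was 0.17 on the log2 scale against -0.04 over all genes, and 0.02 without Control 1. GNG8, a gamma subunit, was at 602, 225 and 421 CPM in Control and at 162, 167 and 326 CPM in Metamorphine, a difference of -1.89, -0.42 and -0.37 in pairs A to C (fitted -0.93, SE 0.43). It was lower in every pair, while the groups overlapped. GNB4, a beta subunit, was at 12.6, 15.1 and 23.5 CPM in Control and 21.9, 21.5 and 26.7 CPM in Metamorphine, and it was higher in each pair with overlapping groups. So was GNG12, a gamma subunit, by 1.06, 0.25 and 0.32 in pairs A to C.

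Genes of cyclic AMP signalling were mostly higher. Of the 25 tested, 13 were higher and 2 lower in 3 of 3 pairs, against 21.2% and 20.0% of all genes. With no TMM factor 15 were higher and 1 lower. On the higher side 2 of the 25 had separate groups, against 5.2% of all genes. The median differences were 0.47, 0.21 and 0.14 in pairs A, B and C, against 0.02, 0.01 and -0.01 over all genes. The median fitted log2 fold change was 0.28, and 0.13 without Control 1. PDE4B, a phosphodiesterase that degrades cyclic AMP, had 44.0, 56.9 and 59.2 CPM in Control and 73.0, 79.8 and 69.3 CPM in Metamorphine. All Metamorphine libraries were above all Controls (fitted 0.47, SE 0.15; 0.35 without Control 1). PRKAR2A, a regulatory subunit of protein kinase A, went from 17.7, 25.7 and 32.7 CPM to 38.0, 33.3 and 36.0 CPM in the same order, with the groups apart. ADCY1, an adenylyl cyclase, was at 46.5, 114 and 58.1 CPM in Control and 146, 148 and 74.7 CPM in Metamorphine, and AKAP12, which anchors protein kinase A, at 15.3, 27.7 and 20.9 CPM against 38.9, 31.9 and 26.4 CPM. Both were higher in each pair with overlapping groups, and their largest gap was that of pair A. The median exon length of these 25 genes was 6821 bases, compared with 3368 bases over all tested genes.

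Early response genes leaned lower in pairs B and C and not in pair A. Of the 29 tested, 9 were lower in 3 of 3 pairs (CCN1, IER2, IER3, ARC, JUND, KLF2, ZFP36, FOSL1 and NPAS4) and 4 were higher (KLF6, KLF10, MYC and SGK1). Over all genes 20.0% were lower and 21.2% higher in 3 of 3 pairs. In pair A 15 of the 29 were higher, in pair B 10 and in pair C 6. The median difference was 0.07 in pair A, -0.22 in pair B and -0.24 in pair C. The median fitted log2 fold change was -0.30, with -0.37 without Control 1 and -0.07 without Control 2. With no TMM factor 5 were lower and 5 higher in 3 of 3 pairs. No member passed the test.

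FOS, the founding early response transcription factor (ENSG00000170345), had 169, 408 and 465 CPM in Controls 1 to 3 and 178, 139 and 268 CPM in Metamorphine 1 to 3. Controls 2 and 3 were high, while Control 1 lay among the Metamorphine libraries. The differences were 0.07, -1.56 and -0.79 in pairs A, B and C, and the fitted log2 fold change was -0.83 (SE 0.39), or -1.16 without Control 1. The other compounds' libraries held 157 to 211 CPM of FOS in code A, 141 to 350 CPM in code B and 234 to 332 CPM in code C. Thus Controls 2 and 3 were above every library of their code, and Control 1 was inside the range of its own. These comparisons share the Control libraries.

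FOSB, a close relative of FOS, had 20.4, 142 and 58.3 CPM in Control and 29.6, 35.7 and 37.5 CPM in Metamorphine. The Metamorphine libraries were alike and the Controls were not, with Control 2 highest and Control 1 lowest (differences 0.53, -1.99 and -0.63; fitted -1.10, SE 0.57, and -1.55 without Control 1). Control 2 was also the library with high MALAT1, and the part of that library in the FOSB value was measured only by leaving it out. The fitted FOSB difference was then -0.20, and that of FOS -0.70.

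IER2, a nuclear early response protein, gave the most even difference among the genes whose promoters are shown. Control had 302, 265 and 381 CPM and Metamorphine 220, 206 and 277 CPM, with differences of -0.46, -0.36 and -0.46. Within each code the Control was above its Metamorphine library, but Metamorphine 3 lay above Control 2, so the groups overlapped (fitted -0.43, SE 0.21). CCN1, a secreted matrix protein, had 11.1, 11.2 and 9.21 CPM in Control and 8.79, 5.13 and 4.69 CPM in Metamorphine. Its groups were apart, and its differences were -0.33, -1.11 and -0.96 (fitted -0.75, SE 0.30). Of the 29 early response genes tested, 1 had separate groups on the lower side and 0 on the higher side. The shares over all genes were 4.15% and 5.2%, so the lower count is near its share.

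EGR1 and NR4A1 had no common direction. EGR1, a zinc finger transcription factor, was at 282, 926 and 812 CPM in Control and 580, 582 and 649 CPM in Metamorphine, higher by 1.04 in pair A and lower by -0.67 and -0.32 in pairs B and C. Its Control 1 value was below the 5 other libraries of code A, which held 403 to 705 CPM. NR4A1, an orphan nuclear receptor, was at 39.8, 77.8 and 24.3 CPM in Control and 30.6, 37.2 and 25.0 CPM in Metamorphine, and differed by -0.38, -1.06 and 0.04. HES1, a repressor downstream of Notch, was at 63.0 CPM in Control 1 and at 28.0 CPM in Metamorphine 1, while pair B differed by 0.01 and pair C by -0.18.

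**Figure D3:**
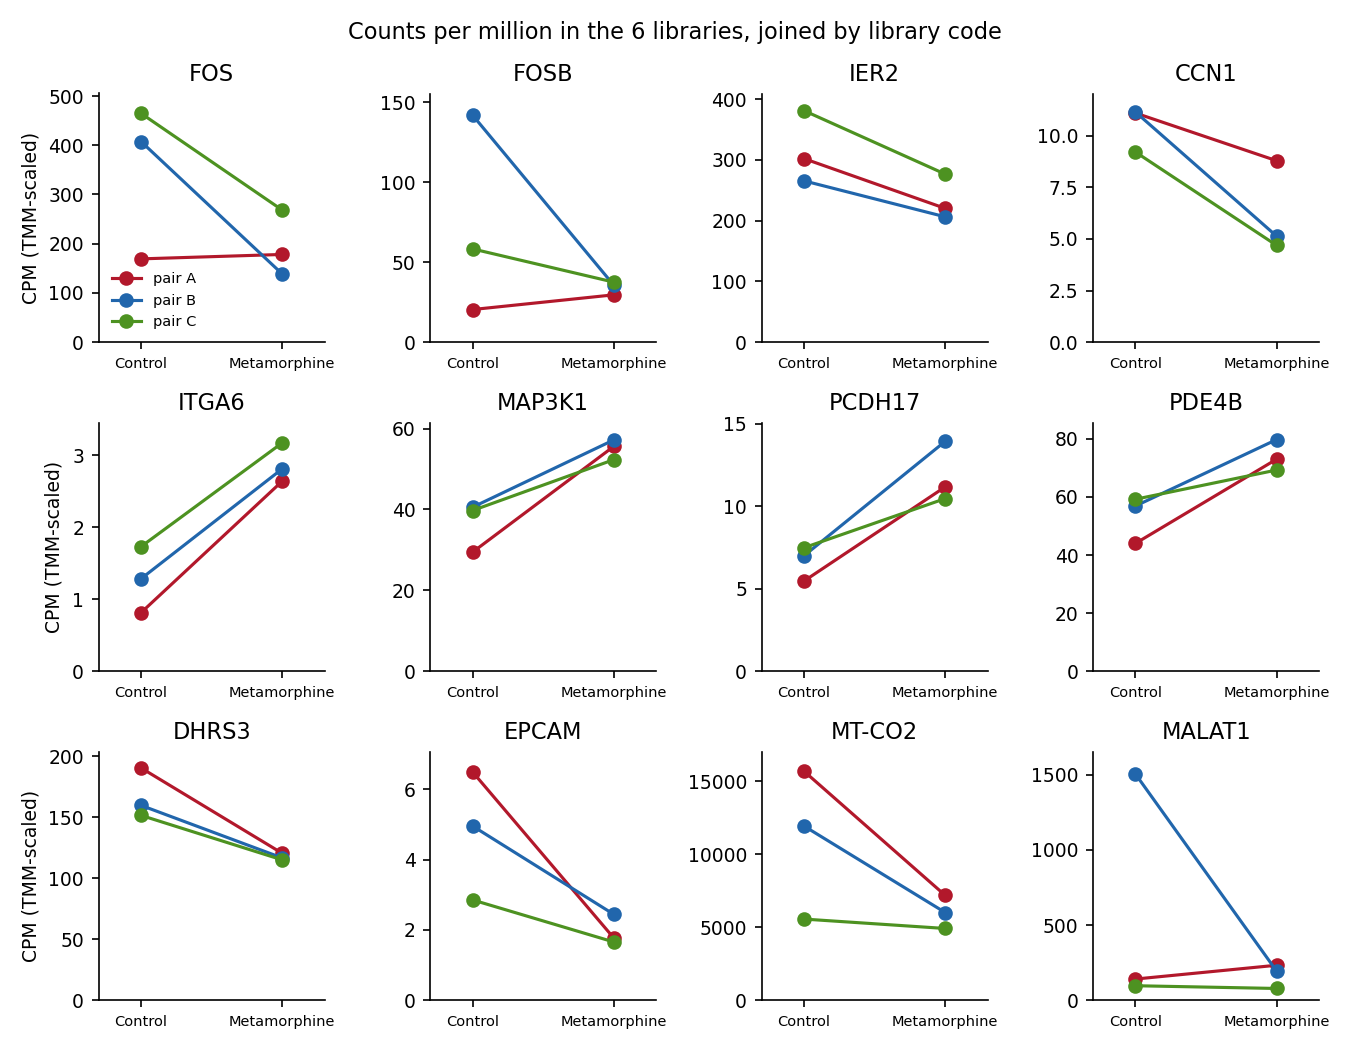
CPM scaled by TMM (vertical axes from 0) of 12 genes in the 3 Control and 3 Metamorphine libraries (horizontal axes), with a line joining the libraries of a code. FOS and FOSB are lower with metamorphine in pairs B and C and not in pair A, IER2 and DHRS3 slope the same way in 3 of 3 pairs, and the MALAT1 line of pair B starts from 1505 CPM.

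Of 17 MAP kinase kinase kinases, 1 had separate groups on the higher side and 1 on the lower side, near the shares of all genes (5.2% and 4.15%). The higher one was MAP3K1, an upstream kinase of the JNK and ERK cascades (GRCh38, chromosome 5, 56815574 to 56896152, plus strand), which had 29.4, 40.6 and 39.7 CPM in Control and 55.6, 57.2 and 52.3 CPM in Metamorphine. The groups did not overlap, and the differences were 0.92, 0.50 and 0.40 (fitted 0.59, SE 0.17; 0.45 without Control 1). In each code the Control was also below every library of the other compounds, of which the lowest held 39.9, 46.2 and 41.2 CPM in codes A, B and C. MAP3K1 was picked by its p against these same Controls, so this is no separate support. As a list, the MAP kinase kinase kinases had 2 members higher and 4 lower in 3 of 3 pairs, against 21.2% and 20.0% of all genes. Their median fold change was -0.01, and with no TMM factor 8 were higher and 1 lower. DUSP4, a phosphatase that acts on ERK, had 60.5, 67.7 and 89.2 CPM in Control and 99.4, 90.1 and 93.1 CPM in Metamorphine, apart by a narrow margin.

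Among all protein-coding genes, those with the smallest p on the higher side were ITGA6, DNAH7, MAP3K1, PUS7L, DOCK10, PTPRR, PCDH17, SRGAP2B, PTPRO and ZNF608, each higher in 3 of 3 pairs. They were picked by p in these same libraries, so their shared direction and separate groups are no separate support. ITGA6 (ENSG00000091409; GRCh38, chromosome 2, 172427354 to 172506282, plus strand), the alpha-6 integrin that binds laminin, had 0.812, 1.28 and 1.73 CPM in Control and 2.64, 2.81 and 3.17 CPM in Metamorphine. Its reads were 18, 29 and 40 against 82, 69 and 67, the groups were apart, and the differences were 1.61, 1.09 and 0.85. The fitted value was 1.17 (SE 0.29; 0.92 without Control 1). Each Control lay below every other library of its code, which held at least 1.72, 2.53 and 1.89 CPM of ITGA6 in codes A, B and C. The gene was picked by its p against these same Controls, so this is no separate support.

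PCDH17, a protocadherin, had 5.46, 6.99 and 7.48 CPM in Control and 11.2, 13.9 and 10.5 CPM in Metamorphine, with separate groups and differences of 1.02, 0.99 and 0.48. PTPRR, a receptor-type phosphatase that acts on ERK, had 4.02, 3.19 and 5.45 CPM against 7.92, 6.76 and 6.82 CPM, and its groups were apart too. ZNF608, a zinc finger protein, had 32.1, 49.6 and 43.5 CPM against 71.5, 68.4 and 54.4 CPM. DOCK10, an exchange factor for small GTPases, had 7.36, 10.8 and 10.4 CPM against 15.0, 17.1 and 11.6 CPM. In ZNF608 and DOCK10 alike the gap narrowed from pair A (1.15 and 1.02) to pair C (0.32 and 0.15). SRGAP2B is a near-identical copy of SRGAP2, and its reads may be split or dropped, so its value (fitted 0.93, SE 0.29) is uncertain.

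By the smallest of the 3 pair differences, SPATA46, DGKK, ITGA6, CREG2 and ALG10 were among the leading higher genes. DGKK, a diacylglycerol kinase, had 1.72, 0.575 and 1.51 CPM in Control and 2.93, 1.96 and 2.84 CPM in Metamorphine (differences 0.75, 1.64 and 0.88). ALG10, which completes the glycan of N-linked glycosylation, had 1.94, 3.19 and 1.86 CPM against 4.25, 4.89 and 3.46 CPM (1.10, 0.61 and 0.87). Both had separate groups, but they were picked by their pair differences in these same libraries, so this is no separate support. The SPATA46 differences of 6.61, 0.88 and 1.69 rest on 0 CPM in Control 1, and its levels of 0, 6.99 and 0.389 CPM in Control and 7.28, 12.9 and 1.42 CPM in Metamorphine were highest in code B in both groups.

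On the lower side the protein-coding genes with the smallest p were LSR, C17orf107, GPR62, EPCAM, ZNF837, CFD, DHRS3, FAM186A, PDGFA and TEX14, each lower in 3 of 3 pairs. Here too the genes were picked by p in these same libraries, so shared direction and separate groups are no separate support. DHRS3, a retinaldehyde reductase that retinoic acid is known to induce (GRCh38, chromosome 1, 12567910 to 12617731, minus strand), had 190, 160 and 152 CPM in Control and 120, 117 and 115 CPM in Metamorphine. The groups were apart, the Metamorphine libraries were close together, and the differences were -0.66, -0.45 and -0.40 (fitted -0.51, SE 0.15; -0.41 without Control 1). Each Control was above all other libraries of its code, whose highest values were 158, 135 and 131 CPM of DHRS3. Since DHRS3 was picked by its p against these same Controls, this is no separate support. ZNF837, a zinc finger protein, was equally even, with 11.1, 8.85 and 9.90 CPM in Control and 6.63, 6.07 and 6.72 CPM in Metamorphine.

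The retinoic acid list as a whole held 15 tested genes, with a median fold change of -0.17. In 3 of 3 pairs 7 were lower and 2 higher, against 20.0% and 21.2% of all genes. With no TMM factor 5 were lower and 4 higher, and the median was 0.24 in pair A but -0.17 and -0.15 in pairs B and C on the TMM scale. CRABP2, which carries retinoic acid to its receptor, had 139, 98.4 and 141 CPM in Control and 65.5, 59.5 and 114 CPM in Metamorphine, lower by 1.09, 0.73 and 0.31 in pairs A to C on the log2 scale while the groups overlapped. BCL2, an inhibitor of apoptosis, had 22.5, 25.1 and 25.9 CPM against 39.0, 32.5 and 29.6 CPM, with the groups apart in the other direction.

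LSR, a receptor for lipoproteins at tricellular junctions, had 7.04, 6.86 and 4.71 CPM in Control and 2.51, 3.38 and 3.65 CPM in Metamorphine. EPCAM, an epithelial adhesion molecule, had 6.50, 4.96 and 2.85 CPM against 1.77, 2.44 and 1.66 CPM, and PDGFA, a growth factor, 2.21, 3.23 and 1.51 CPM against 0.837, 1.06 and 1.14 CPM. In all 3 genes the groups were apart and Control 3 was the lowest of the Controls. By the smallest pair difference, MMP14 (a membrane metalloproteinase), HAAO (an enzyme of tryptophan breakdown), PTPN6 (a phosphatase of blood cells), GCNA and CYP2E1 led the lower genes. The MMP14 levels were 3.20, 1.90 and 0.735 CPM in Control and 0.966, 0.570 and 0.237 CPM in Metamorphine, differences of -1.66, -1.62 and -1.38 on low counts, with overlapping groups. GCNA, a germ cell protein, had 2.12, 1.37 and 1.82 CPM against 0.934, 0.489 and 0.805 CPM with the groups apart. MMP14 and GCNA were picked by their pair differences in these same libraries, so this is no separate support.

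Some markers of other cell types were on this lower side too. Of 12 epithelial markers 7 had enough reads for a test, and 7 of these had a fitted fold change below 0, with 3 lower in 3 of 3 pairs. Their summed level was 32.9, 26.1 and 10.4 CPM in Controls 1 to 3 and 13.4, 14.8 and 9.80 CPM in Metamorphine 1 to 3. The 4 of 7 muscle markers that could be tested were lower in 3 of 3 pairs, with sums of 25.7, 4.91 and 9.25 CPM against 4.99, 4.03 and 6.16 CPM, and so were the 4 of 10 immune markers that could be, with 19.7, 10.6 and 7.74 CPM against 6.31, 5.95 and 6.82 CPM. Over all genes 53.2% had a fitted fold change below 0 and 20.0% were lower in 3 of 3 pairs. A gene of few reads can pass the read filter through the Control libraries alone, so these marker counts may be in part set by the filter. In the epithelial, muscle and immune lists alike Control 1 had the highest sum. Their median fold changes of -1.28, -1.76 and -0.76 became -0.58, -0.61 and -0.55 without Control 1. TNNT2, a cardiac troponin, had 1.35, 0.531 and 0.519 CPM in Control and 0.193, 0.204 and 0.142 CPM in Metamorphine, and CD14, a monocyte receptor, 4.02, 3.19 and 2.25 CPM against 1.84, 1.59 and 1.75 CPM. The Schwann and glial markers had 2 of 8 lower in 3 of 3 pairs, with a pair C median of 0.04. The mesenchymal markers had 4 of 6 with a fitted fold change above 0, a median of 0.02 and 0 lower in 3 of 3 pairs. In bulk RNA, fewer cells of a type and less RNA per cell cannot be told apart. Control 1 was also the library that held reads for 2077 of the 3647 genes with a median of 0 reads. The part of such reads in the marker values was not tested, nor was the part of these markers in the lower genes.

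Of 28 genes of neuronal structure and identity, 9 were higher and 2 lower in 3 of 3 pairs, against 21.2% and 20.0% of all genes, and 4 had separate groups on the higher side, against 5.2% of all genes. The medians were 0.34, 0.16 and 0.00 in pairs A to C, and 14 of the 28 were higher in pair C. The fitted fold change was below 0 for 8 of the 28. With no TMM factor 16 were higher and 1 lower in 3 of 3 pairs. The median exon length of the 28 was 5177.5 bases, compared with 3368 bases over all tested genes. DCX, MAP2, CNTN1 and SYT1 are described because they had the 4 smallest p of the list. DCX, a microtubule protein of young neurons, had 73.4, 102 and 95.2 CPM in Control and 174, 133 and 112 CPM in Metamorphine, with a difference that shrank from 1.25 in pair A to 0.23 in pair C. MAP2, a dendritic microtubule protein, had 95.9, 147 and 196 CPM against 209, 201 and 212 CPM, so that it was mainly the Controls that varied. CNTN1, a contactin of axons, and SYT1, the calcium sensor of synaptic vesicles, followed the same order of pairs (1.27, 0.44 and 0.13 for CNTN1; 0.84, 0.44 and 0.05 for SYT1). The 20 noradrenergic genes had medians of 0.16, 0.18 and 0.08 in pairs A to C. In 3 of 3 pairs 12 were higher and 0 lower (21.2% and 20.0% over all genes), and 1 had separate groups on the higher side (5.2% over all genes). The fitted fold change was below 0 for 5 of the 20. The summed level of the whole list was 7685, 6633 and 6207 CPM in Controls 1 to 3. In Metamorphine 1 to 3 it was 7231, 7543 and 6063 CPM, so the sum was lower in pairs A and C. TFAP2B, a transcription factor of the neural crest, was at 208, 292 and 201 CPM in Control and at 300.1, 344 and 244 CPM in Metamorphine, higher in each pair with overlapping groups. HAND1, a transcription factor of sympathetic cells, had separate groups at 94.9, 79.8 and 93.3 CPM against 101, 108 and 107 CPM. Of 16 integrins, 6 were higher and 1 lower in 3 of 3 pairs (21.2% and 20.0% over all genes), and 3 had separate groups on the higher side (5.2% over all genes). Potassium channels, a target of beta-gamma subunits, had 7 of 19 higher and 0 lower in 3 of 3 pairs (21.2% and 20.0% over all genes). The fitted fold change was below 0 for 6 of the 19. The summed level of that list was 888, 1302 and 861.2 CPM in Controls 1 to 3. In Metamorphine 1 to 3 it was 1041, 1223 and 803.5 CPM, so the sum was lower in pairs B and C. The 13 voltage-gated calcium channel genes had 0 higher and 2 lower in 3 of 3 pairs (21.2% and 20.0% over all genes), or 1 higher and 0 lower with no TMM factor. Their fitted fold change was above 0 for 7 and below 0 for 6.

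Cytosolic ribosomal protein and nuclear respiratory genes were mostly lower in pairs A and C and mostly higher in pair B. All 77 cytosolic ribosomal protein genes had a fitted fold change below 0 (median -0.51), but their medians were -1.33 in pair A, 0.11 in pair B and -0.16 in pair C. Of the 77, 15 were lower in 3 of 3 pairs, near the 20.0% of all genes, or 2 with no TMM factor. In pair B 62 of the 77 were higher. Their summed level was 109300 CPM in Control 1 and 43810 CPM in Metamorphine 1. The 72 nuclear genes of the respiratory chain behaved alike, with medians of -1.19, 0.08 and -0.18. In 3 of 3 pairs 18 were lower and 1 higher, against 20.0% and 21.2% of all genes, or 7 lower and 5 higher with no TMM factor. Without Control 1 the fitted medians of both lists were -0.27.

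The mitochondrially encoded mRNAs differed from these in pair B. Of 13, 9 were lower and 0 higher in 3 of 3 pairs, against 20.0% and 21.2% of all genes. The medians were -0.74, -1.09 and -0.07 in pairs A to C (fitted -0.73, and -0.54 without Control 1). MT-ND3, a subunit of complex I, had 3035, 1815 and 1327 CPM in Control and 974, 843 and 1123 CPM in Metamorphine, with the groups apart. MT-CO2, a subunit of cytochrome oxidase, had 15700, 11940 and 5561 CPM against 7185, 6010 and 4916 CPM. Controls 1 and 2 were the highest of the 6 libraries for both genes, and they also had the highest mitochondrial shares of the 6. That share counts the reads of these same mRNAs, so it is no separate observation. In code B Control 2 was above every other library for MT-ND3, MT-CO2 and MT-CO3. In code A Control 1 was above every other library for MT-ND3 and MT-CO2, but for MT-CO3 its 12470 CPM lay inside the range of the other compounds, which reached 13790 CPM. Both TRV130 libraries of code A had higher mitochondrial shares than Control 1, 17.7% and 15.6%. In code C Control 3 was inside the range for all 3 genes.

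**Figure D4:**
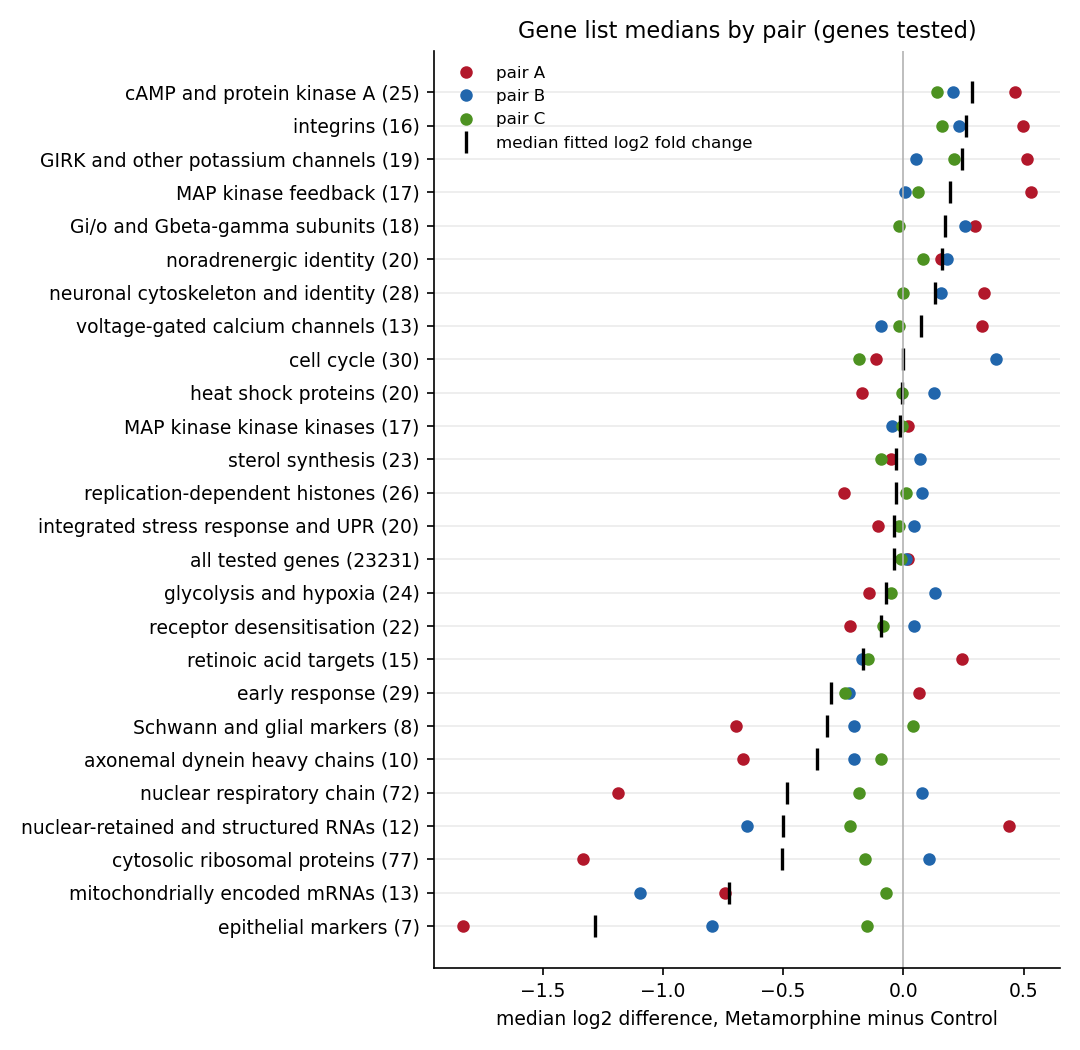
Median log2 difference, Metamorphine minus Control (horizontal axis), over the tested members of each gene list with at least 7 (vertical axis, number tested in brackets); coloured points are the 3 pairs and black bars the median fitted fold change. Ribosomal and nuclear respiratory genes are far left in pair A only, mitochondrial mRNAs in pairs A and B, and the cyclic AMP list is right of 0 in 3 of 3 pairs.

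Pair B had features of its own. The 12 nuclear-retained and structured RNAs had medians of 0.44, -0.65 and -0.22 in pairs A to C. RN7SK, a small nuclear RNA that holds back elongation by polymerase II, was at 1.04, 21.9 and 5.58 CPM in Control and 2.13, 2.61 and 4.17 CPM in Metamorphine, and KCNQ1OT1, an imprinted antisense RNA, at 7.76, 28.1 and 2.21 CPM against 4.73, 7.33 and 2.70 CPM. NEAT1, the RNA of paraspeckles, was at 184, 621 and 213 CPM against 255, 304 and 157 CPM. For RN7SK, KCNQ1OT1 and NEAT1 Control 2 was the highest library of the 6 and above all others of its code. The fitted MALAT1 difference of -1.79 (SE 0.78) became 0.51 without Control 2, and that of NEAT1 went from -0.51 to 0.27. The cell cycle list was another case, since 29 of its 30 genes were higher in pair B (median 0.38), compared with 13 in pair A (-0.11) and 3 in pair C (-0.19). The fitted median of that list was 0.00.

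Several of the largest differences of pair A went with a level in Control 1 that none of the other 5 libraries shared. RYR1, a calcium release channel of muscle, had 19.5 CPM in Control 1 and between 2.21 and 3.59 CPM in the other 5 libraries, with differences of -2.57, 0.04 and 0.01. CACNA1A, a calcium channel subunit, had 12.5 CPM in Control 1 and at most 0.367 CPM elsewhere among the 6. CRACD, an inhibitor of actin capping, was at 9.61 CPM in Control 1 and at 53.0 to 117 CPM in the other 5 libraries. NPIPB4, a member of a near-identical gene family with uncertain reads, was different, at 29.4 and 24.4 CPM in Controls 1 and 2, and it was lower in pair B as well, by 1.37 on the log2 scale.

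The genes of the study's title had few reads. GARIN4, a testis gene of the Golgi, had 9, 25 and 13 reads in Control and 0, 0 and 1 reads in Metamorphine. The groups were thus apart and each pair was lower (edgeR unadjusted p = 0.000769, adjusted p = 0.595). GARIN4 was named because of the title and passed the read filter mainly through Control, so these values are no separate support for it. The library kit kept no strand, and reads of the antisense gene that overlaps GARIN4 cannot be told from its own. CACNA1F, a retinal calcium channel, had 119, 4 and 0 reads in Control and 1 read in each Metamorphine library, too few for the test. RASAL1, a RAS GTPase-activating protein, had 55, 12 and 1 reads in Control and 3, 3 and 2 in Metamorphine, and TRIM56, a ubiquitin ligase of innate immunity, 103, 16 and 0 against 4, 4 and 3. For CACNA1F, RASAL1 and TRIM56 Control 1 held most of the reads, and pair C did not share the direction of pairs A and B.

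Few well-expressed genes passed 1.5-fold in every pair. At 10 CPM or more there were 5, all listed here after their values were seen. IGFBP6, a binding protein of insulin-like growth factor, had 27.3, 15.9 and 25.2 CPM in Control and 13.8, 9.13 and 14.4 CPM in Metamorphine, with separate groups and differences of -0.98, -0.80 and -0.81 (fitted -0.87, SE 0.29). CSAG3, a testis antigen with near-identical copies that make its reads uncertain, had 58.5, 33.9 and 40.2 CPM against 30.9, 16.4 and 23.8 CPM. SCX, a tendon transcription factor, had 27.6, 22.8 and 7.40 CPM against 13.5, 11.6 and 4.55 CPM, lower in each pair with overlapping groups. Higher were an antisense transcript on chromosome 5 (ENSG00000250240; 0.948, 12.2 and 8.52 CPM against 17.3, 18.9 and 12.9 CPM) and the miRNA hairpin locus MIR136 (1.81, 22.9 and 4.32 CPM against 27.7, 36.5 and 9.52 CPM), where Control 1 was the lowest library for both.

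Set against morphine (193 nM, also 15 min, so that the doses differ), metamorphine gave 0 called genes (0.0%) and 75 at an unadjusted p under 0.05 (0.323%) in edgeR. The fitted FOS difference, metamorphine minus morphine, was 0.00 with a 95% interval of -0.82 to 0.82, that of IER2 -0.09 (-0.53 to 0.34) and that of MAP3K1 0.12 (-0.23 to 0.47). For ITGA6 it was 0.11 (-0.49 to 0.71) and for DHRS3 -0.11 (-0.42 to 0.20). A difference between the compounds within these bounds could not be seen with 3 libraries a group.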

How the data were processed

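RNA sequencing of 6 libraries (3 Metamorphine, 3 Control) was analysed within a series of 18. The authors deposited 1 table of raw counts of reads for each Ensembl gene. The submitters' processing notes name HISAT2 and featureCounts, besides FastQC and DESeq2, and the build GRCh38 (hg38). Versions and settings: not given in the sources used here. Per the labels' protocols, the kit kept no strand, so overlapping antisense genes cannot be separated, and near-identical copies may be split. Columns were matched to samples by name, and 0 were unused. All 58735 gene IDs were in GENCODE 29, which gave positions and exon lengths; promoters are from RefSeq.

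Counts were tested with edgeR 4.0.16 (R 4.3.3): filterByExpr with a minimum count of 10 (23231 genes), TMM, and the robust quasi-likelihood fit over 18 libraries with 1 mean per group, two-sided, Benjamini-Hochberg adjusted over all genes at 0.05. Pair differences are log2 CPM (prior count 2) of Metamorphine minus the Control of the same code. They carry no test. Standard errors come from the fold change and its F statistic. DESeq2 1.42.0, limma 3.58.1, other scalings and filters, the code as a block and left-out libraries were alternatives. The scripts were checked on simulated counts. Depth was 21211449 to 29690797 counts in the 6 libraries. Since nothing says that the libraries are separate cultures, p-values cover only their own spread, possibly a technical one.

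Genes were named by rule: the 10 protein-coding genes of at least 1 CPM with the smallest p in each direction, the 10 with the largest smallest pair difference, the largest differences of each pair from 10 CPM, title and receptor genes, FOS, EGR1 and NR4A1, and up to 4 members of a list by p. Not all of these are described, and FOSB, which led the lower genes of pair B, is. The comparison, the 33 lists and the rules were chosen with earlier results of these data known. The comparison of each library with the others of its code was added after seeing the data. The codes 0409, 1109 and 14.04 are called A, B and C here, and the TRV130 libraries of code 10409 and 20409 were read as A.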

Additional observations from a re-analysis of the deposited data

How the results depend on the processing

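The count of 0 called genes against water held under the 14 other settings, with 356 to 5758 genes at an unadjusted p under 0.05, apart from fits that both left out a library and held the code as a block. With the code as a replicate block edgeR called 0 genes (5494 at an unadjusted p under 0.05). Leaving out 1 library from that block gave 0 to 1169 calls, and the 1169 came without Control 3, with the smallest adjusted p at 0.049; among the named genes 34 passed only there. In a check of the pairing, deviations from the group mean of same-numbered libraries had correlations of -0.05, 0.65 and 0.64. Metamorphine 2 and 3 each correlated best with the Control of their own number, while Metamorphine 1 correlated best with Control 2 (0.37). By this check same-numbered libraries went together in pairs B and C, and in pair A they did not. Both libraries of pair A carry the same code, and Control 1 lay far from the other libraries of that code. The check therefore cannot say whether pair A is a true pair. Against morphine 0 genes were called under every setting run. The counts of genes higher, lower, 1.5-fold higher and 1.5-fold lower in 3 of 3 pairs were 3250, 2512, 2 and 3 from 10 CPM, and with no TMM factor the lower count was 2946 and the 1.5-fold higher count 168. Without Control 1, pairs B and C gave 6280, 6396, 228 and 607. Of 1412 fold changes of 71 named genes under the alternatives, 21 changed sign, in 8 genes. OPRD1 was at -0.0024 with the 2 groups alone. In fits without 1 library EGR1 ranged from -0.53 to 0.14, MALAT1 from -2.29 to 0.51, NEAT1 from -0.81 to 0.27, CACNA1A from -7.49 to 2.36, RYR1 from -1.92 to 0.079, OPRD1 from -0.53 to 0.86 and OPRL1 from -0.0055 to 0.19. With the block as well, values of the other sign were 0.18, 0.14 and 0.10 for EGR1, 0.19 for MALAT1, 0.23 for RN7SK, 0.0074 for NEAT1, 1.92 for CACNA1A, -0.081 and -0.0042 for OPRD1 and -0.033 for OPRL1. The cause was not tested. Of 217 list medians under the alternatives, 187 moved by less than the spread between the pairs. Of the 292 genes at least 1.5-fold lower in 3 of 3 pairs, 212 averaged under 1 CPM, where few reads stand behind a difference.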
